A study of Mus musculus with 6 samples.

Results

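The cytosolic ribosomal protein genes were described in bulk RNA-seq of E14.5 mouse palatal shelves, the paired outgrowths that form the roof of the mouth. Members were chosen by name, as protein-coding genes whose symbol follows the Rpl, Rps, Rplp0 to Rplp2 or Rpsa pattern. The pattern took 85 of the 55631 gene IDs in the deposited table. Of these, 84 encode ribosomal proteins or close paralogues of them, 52 of the large and 32 of the small subunit. The remaining match, Rps6kl1, is a kinase-like gene named after a ribosomal protein kinase and was set aside, and 6 matches annotated as pseudogenes were left out. Of the 84 genes, 82 were above 0 in all 6 libraries, and the same 82 passed the filter for testing, a mean of at least 1 FPKM (fragments scaled to gene length and library size), which 14714 genes of the table passed.

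The libraries came from 3 KO and 3 control samples. The KO embryos were p130Casfl/fl; CAG-Cre, so they carried a Cre transgene under the CAG promoter, which is broadly active and not limited to the palate. The control embryos were p130Casfl/fl without a Cre label, titled WT although they carried the same floxed alleles, and they had no Cre-only counterpart among the samples used here. p130Cas, the product of Bcar1, is an adaptor protein of integrin adhesion sites. Litters and pooling are not recorded in the labels, so a p-value here speaks of the scatter among these 6 libraries and may be technical in part. Values for single libraries are given throughout in the order of replicates 1, 2 and 3.

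As a check of the labels, Bcar1 stood at 1.69, 1.69 and 1.31 FPKM in KO shelves, against 1.80, 1.97 and 2.09 FPKM in control shelves. The KO values lay below all control values, but limma did not call the gene (log2 fold change -0.21 ± 0.11, SE, n = 3 each; adjusted p = 1.00), and the value of a whole gene does not measure recombination. Fold changes are of FPKM + 1 on the log2 scale throughout. Palatal mesenchyme was represented by all 10 of its markers, with a median of 50.2 FPKM, and none of them was at 0. Xist was above 0 in KO replicate 2, at 61.0 FPKM, and at 0 in the other 5 libraries, and Ddx3y was at 0 in KO replicate 2 and between 15.2 and 18.8 FPKM elsewhere, so that 1 library differed in sex from the rest. How many reads stand behind a value is not known.

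A ribosome is built from a large and a small subunit, each a core of ribosomal RNA clothed by ribosomal proteins that are, with few exceptions, present in a single copy. The genes for these proteins are scattered over the genome, and their transcripts belong to the TOP mRNAs, which start with a cytosine followed by a run of pyrimidines and whose translation is switched together by mTOR signalling through LARP1. The craniofacial skeleton is known to be sensitive to ribosome production. In people, mutations of single ribosomal protein genes cause Diamond-Blackfan anaemia, in which cleft palate is among the malformations, and loss of factors for ribosomal RNA synthesis causes Treacher Collins syndrome.

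The pyrimidine start is the sequence feature that defines this class of transcripts, so the starts were read before the levels. Of the 82 tested members, 62 had a start in the RefSeq promoter table for GRCm38.p6. At 12 of these 62 starts (19.4%) the first transcribed base was a C followed by at least 4 pyrimidines, against 230 of 10268 other tested genes (2.24%). A C followed by at least 4 pyrimidines anywhere within 5 bases before to 10 bases after the annotated start was found in 28 of 62 members (45.2%), against 2050 of 10268 other tested genes. The annotated start can miss the main start in this tissue by some bases, so these shares are of RefSeq starts and not of transcripts. The 8 starts below show 15 bases before and 15 bases from the annotated start, with the pyrimidine run from the start in capitals. They were taken for the 5 longest runs and for 3 genes whose levels are described further on (Rplp2, Rps27 and Rps15a).
Rps10 (chr17:27635230-27635259, minus strand): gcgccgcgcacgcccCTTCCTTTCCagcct
Rps6 (chr4:86857353-86857382, minus strand): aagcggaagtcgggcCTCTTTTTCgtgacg
Rpl35 (chr2:39005117-39005146, minus strand): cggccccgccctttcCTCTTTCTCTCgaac
Rpl15 (chr14:18270972-18271001, minus strand): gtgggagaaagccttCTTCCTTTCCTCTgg
Rps18 (chr17:33955651-33955680, minus strand): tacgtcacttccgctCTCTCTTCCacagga
Rplp2 (chr7:141447636-141447665, plus strand): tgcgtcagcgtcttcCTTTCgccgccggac
Rps27 (chr3:90213634-90213663, minus strand): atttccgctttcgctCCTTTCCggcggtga
Rps15a (chr7:118116133-118116162, minus strand): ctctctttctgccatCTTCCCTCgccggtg
The starts differ in the length of the run, with 13 bases in Rpl15, 11 in Rpl35, 10 in Rps10, 9 in Rps6 and Rps18, 8 in Rps15a, 7 in Rps27 and 5 in Rplp2. For contrast, 2 of the most abundant members had no such run at their annotated start.
Rplp0 (chr5:115559452-115559481, plus strand): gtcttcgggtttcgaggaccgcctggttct
Rpl41 (chr10:128549154-128549183, minus strand): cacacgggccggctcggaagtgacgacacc
In the window from 250 bases before to 50 bases after the start, CCGGAAG, a sequence bound by ETS family factors, occurred on either strand in 40.3% of the members, against 17.9% of the other tested genes. AAGATGG, the core of the YY1 motif, occurred on either strand in 9 of 62 members, against 724 of 10268 other tested genes (7.05%). A window could hold both sequences. The 12 members with a pyrimidine run at the start had a median level of 418 FPKM, and the 50 without one had a median of 499 FPKM.

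Ribosomal protein transcripts were among the most abundant of the shelves. The 82 genes had a median of 508 FPKM over the 6 libraries, against 9.25 FPKM for all tested genes, and the median member stood at percentile 99.4. They made up 17 of the 50, 45 of the 100 and 72 of the 200 most abundant tested genes. Of the 82, 77 had a mean of at least 100 FPKM, 43 of at least 500 FPKM and 6 of at least 1000 FPKM. The range ran from 1.52 FPKM for Rpl39l to 1399 FPKM for Rplp1, although nearly all of these proteins enter the ribosome in equal number. FPKM divides by gene length, and the lengths used by the submitters are not known, so the order of genes by level depends on them.

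**Figure D1:**
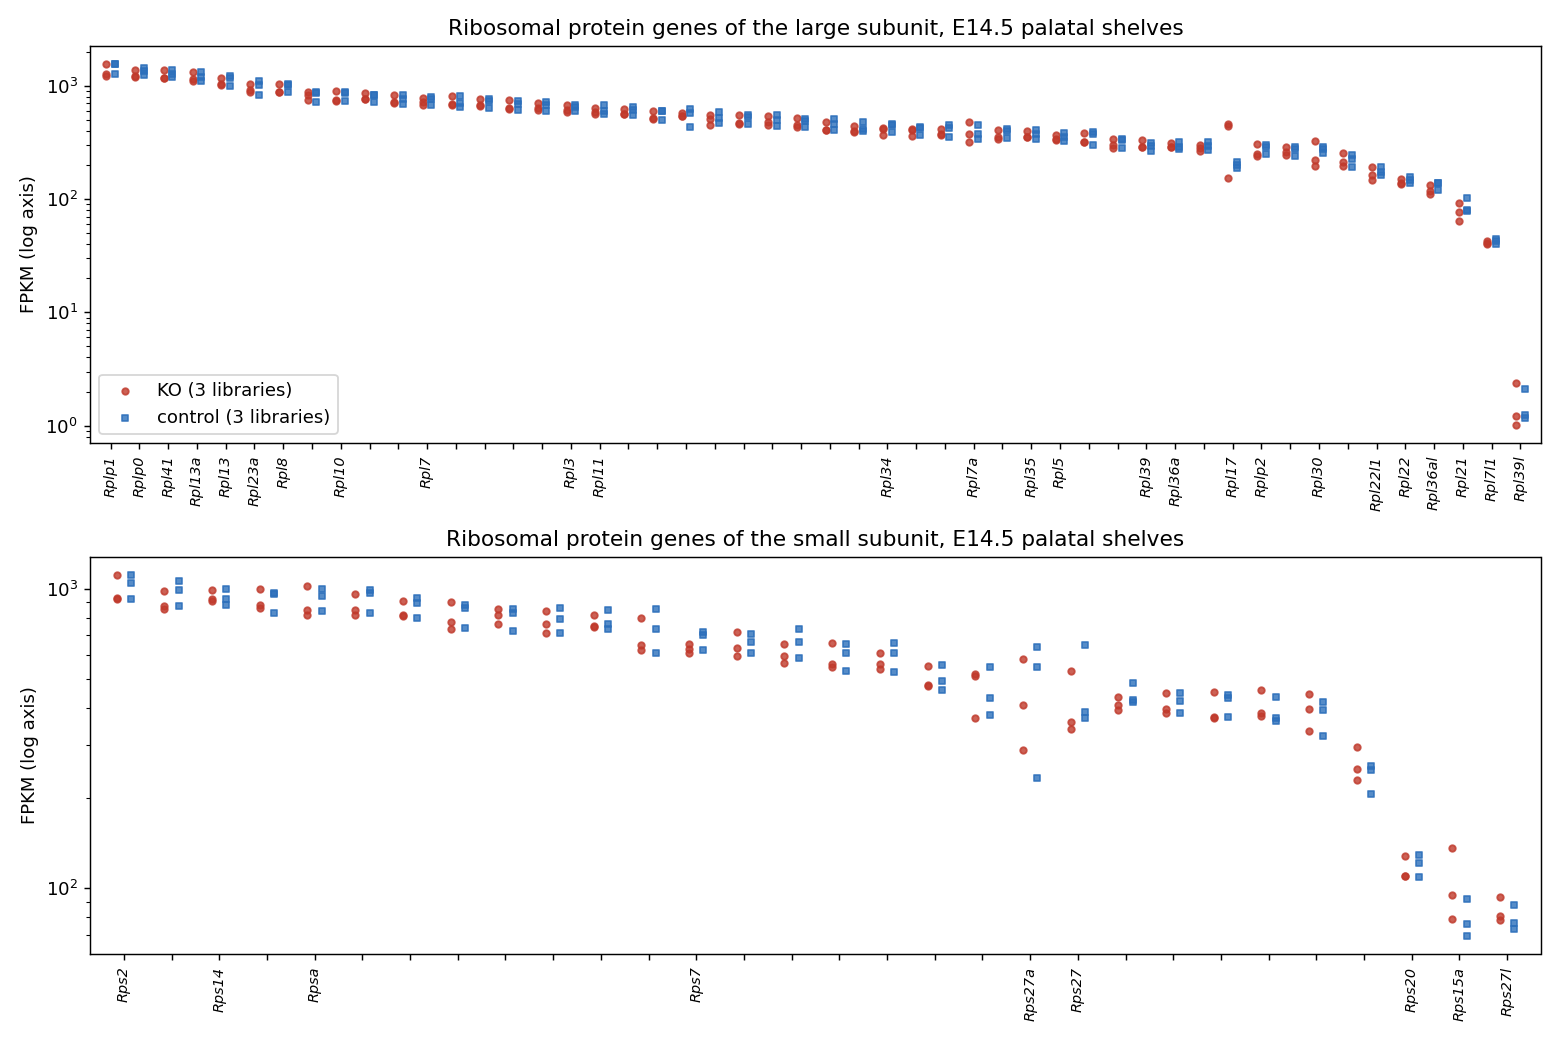
FPKM (log axis) of the tested ribosomal protein genes that are reported here, large subunit above and small subunit below, genes in order of their mean and only those named by rule labelled; each point is 1 library, KO as red circles to the left and control as blue squares to the right of each gene's position. The groups overlap in every gene shown, and most genes lie above 100 FPKM.

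The stalk of the large subunit, which recruits elongation factors, is formed by the anchor protein of Rplp0 with dimers of the acidic proteins of Rplp1 and Rplp2. Rplp1 was the most abundant member, with 1215, 1540.0 and 1276 FPKM in KO shelves, against 1259.7, 1554 and 1548 FPKM in control shelves. Rplp0 followed, with 1185, 1371 and 1229 FPKM in KO shelves, against 1234, 1431 and 1358 FPKM in control shelves. The ranges of these 2 genes overlapped between libraries, but Rplp1 stood above Rplp0 within each of the 6 libraries. Rplp2, the third stalk gene, was far lower, with 241, 305 and 252 FPKM in KO shelves, against 247, 303 and 287 FPKM in control shelves. Its highest library lay below the lowest library of Rplp1 and of Rplp0, although Rplp1 and Rplp2 proteins sit on the stalk in pairs.

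Further genes of the large subunit were among the 8 most abundant members. Rpl41, which encodes the smallest ribosomal protein, had 1166, 1384 and 1175 FPKM in KO shelves, against 1186, 1382 and 1263 FPKM in control shelves. Rpl13a, whose protein is also known to leave the ribosome and to silence transcripts in inflamed myeloid cells, had 1139, 1315 and 1092 FPKM in KO shelves, against 1106, 1332 and 1182 FPKM in control shelves. Rpl13 had 1031, 1163 and 1013 FPKM in KO shelves, against 999, 1211 and 1161 FPKM in control shelves. Rpl13a and Rpl13 each overlap another annotated gene on the same strand, so part of their reads may have been assigned elsewhere or added. Rpl23a, which lies at the exit of the peptide tunnel, had 888, 1045 and 909 FPKM in KO shelves, against 829.7, 1022 and 1107 FPKM in control shelves. Rpl8, a core protein near the peptidyl transferase centre, had 880.2, 1034 and 872 FPKM in KO shelves, against 875, 1031 and 1004 FPKM in control shelves. In each of these genes KO replicate 2 was above the other KO libraries and control replicate 1 was the lowest control library.

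Rps2, at the mRNA entry of the small subunit, was the highest small subunit gene and stood between Rpl13 and Rpl23a in the order of means, with 927, 1109 and 933 FPKM in KO shelves, against 927, 1113 and 1042 FPKM in control shelves. Rpsa, the small subunit protein that also bears the name laminin receptor, had 819, 1018 and 849.7 FPKM in KO shelves, against 845, 996 and 949 FPKM in control shelves. It is the gene mutated in human isolated congenital asplenia. Rps20 was 1 of the lowest small subunit genes, with 110.1, 129 and 110.2 FPKM in KO shelves, against 109, 129 and 121 FPKM in control shelves. Its annotated transcript has 3706 bases, against 1094 for Rps2 and 1938 for Rpsa. The part of this length in its low FPKM was not tested. Groups overlapped in all 3 genes, and KO replicate 2 and control replicate 2 were the highest libraries of their groups in each.

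Rpl5 and Rpl11 join the 5S ribosomal RNA in a particle that binds Mdm2 and stabilises p53 when ribosome assembly is disturbed. Rpl5 had 336, 365 and 335 FPKM in KO shelves, against 322, 382 and 355 FPKM in control shelves. Rpl11 had 567, 631 and 584 FPKM in KO shelves, against 561, 675 and 595 FPKM in control shelves. Rpl11 stood above Rpl5 in each of the 6 libraries, and neither gene separated the groups.

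By subunit, the 50 tested genes of the large subunit had a median of 458 FPKM and the 32 of the small subunit 617 FPKM. The middle 50% of the genes ran from 295 to 719 FPKM in the large and from 425 to 808 FPKM in the small subunit, so the subunits overlapped widely. Of the 6 genes of at least 1000 FPKM, 5 belonged to the large subunit. Summed FPKM of the large over that of the small subunit was 1.39, 1.38 and 1.40 in KO shelves, against 1.40, 1.35 and 1.39 in control shelves. The ratio averaged 1.388 ± 0.00757 in KO and 1.380 ± 0.0238 in control shelves (SD, n = 3 each), and the difference of 0.00803 lay within the spread of the controls. With the 8 members that share under 10% of their sequence windows with other genes, a set described below, the difference was -0.0246, and it was -0.00559 without control replicate 2.

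Paralogues differed widely in their level beside the parent gene. Rpl22l1 stood above Rpl22, the RNA-binding protein whose paralogue is known to be kept low by it in mice, and made up 53.9% of the pair in KO and 54.4% in control shelves. Rpl22l1 had 146, 189.8 and 163 FPKM in KO shelves, against 161, 192 and 173 FPKM in control shelves. Rpl22 had 138, 151 and 137 FPKM in KO shelves, against 139, 155 and 147 FPKM in control shelves. Rpl22l1 was above Rpl22 in each of the 6 libraries, with a share of the pair from 51.4% to 55.7%. The annotated transcripts have 552 bases for Rpl22l1 and 2051 for Rpl22, so this order and share rest on the lengths used for FPKM. No other paralogue exceeded its parent.

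Rpl36al, a retrocopy of the X-linked Rpl36a, held 29.0% of its pair in KO and 31.0% in control shelves. Rpl36al had 119, 109.7 and 133 FPKM in KO shelves, against 121, 138 and 137 FPKM in control shelves. Rpl36a had 287, 312 and 286 FPKM in KO shelves, against 275, 318 and 291 FPKM in control shelves. Rpl36al overlaps another annotated gene on the same strand. Rps27l, a target of p53, held 17.1% of its pair with Rps27 in KO and 14.4% in control shelves. Rps27l had 78.6, 93.9 and 81.0 FPKM in KO shelves, against 73.0, 88.2 and 76.5 FPKM in control shelves. The groups overlapped in Rps27l. The share also depends on Rps27, which shares 98.6% of its sequence windows with a copy, Rps27rt. The SD of Rps27 over the 6 libraries was 0.37 on the log2 scale alone and 0.14 with its copies added. The part of the division of reads between Rps27 and its copies in these shares was not tested. The values of Rps27 are given further on.

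Rpl7l1, a relative of Rpl7 associated with ribosome assembly, held 5.37% of its pair in KO and 5.34% in control shelves. It had 40.1, 42.7 and 41.0 FPKM in KO shelves, against 40.1, 44.0 and 42.4 FPKM in control shelves, the narrowest spread of any tested member. Its parent Rpl7 had 680.4, 784 and 716 FPKM in KO shelves, against 681, 802 and 759 FPKM in control shelves. Rpl39l, known from the testis, held 0.505% of its pair in KO and 0.517% in control shelves. Rpl39l had 1.23, 1.01 and 2.36 FPKM in KO shelves, against 1.23, 1.18 and 2.11 FPKM in control shelves. Rpl39 had 287, 333 and 285 FPKM in KO shelves, against 267, 311 and 293 FPKM in control shelves. Rpl39l was thus close to the filter, where a small absolute change moves the log2 value most.

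Rpl3l, known from heart and skeletal muscle, and Rpl10l, a testis-expressed copy of Rpl10, were listed at 0 in all 6 libraries. Their parents were abundant. Rpl3 had 589, 678 and 609 FPKM in KO shelves, against 596, 670.0 and 651 FPKM in control shelves, and Rpl10 had 748, 893 and 729.8 FPKM in KO shelves, against 735, 879 and 862 FPKM in control shelves. Skeletal muscle markers were present, with 10 of 11 passing the filter and summing to between 307 and 452 FPKM in KO and between 303 and 528 FPKM in control shelves. The kinase-like Rps6kl1, which is no ribosomal protein, had 0.523, 0.491 and 0.375 FPKM in KO shelves, against 0.642, 0.641 and 0.760 FPKM in control shelves, and was too low to be tested.

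Across the 6 libraries the ribosomal protein genes moved as a block, and this movement did not follow genotype. Members summed to 11.2, 11.8 and 10.8% of all FPKM in KO shelves, against 10.5, 11.9 and 11.7% in control shelves. The mean share was 11.3 ± 0.483% in KO and 11.4 ± 0.759% in control shelves (SD, n = 3 each), a difference of -0.0860 percentage points. KO replicate 2 and control replicate 2 were the highest libraries and control replicate 1 was the lowest. For each gene, the deviation of log2(FPKM + 1) from the gene's mean over the 6 libraries was taken. The median deviation over members was -0.08, 0.12 and -0.09 in KO shelves, against -0.12, 0.13 and 0.05 in control shelves. In KO shelves 6, 78 and 6 of the 82 genes were above their own mean, against 2, 77 and 65 in control shelves. The highest value of a gene was in control replicate 2 for 49 genes and in KO replicate 2 for 25, and the lowest was in control replicate 1 for 42, in KO replicate 1 for 19 and in KO replicate 3 for 18.

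**Figure D2:**
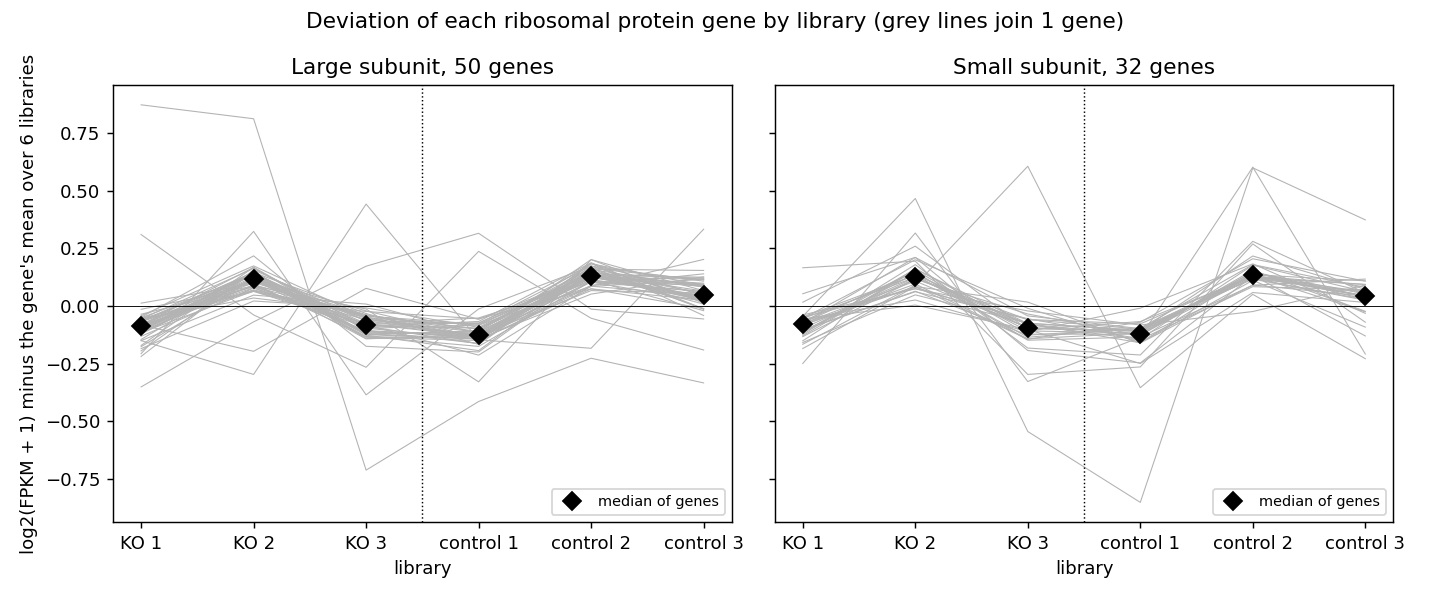
Deviation of log2(FPKM + 1) from the gene's mean over 6 libraries, large subunit left and small subunit right, KO libraries left of the dotted line and control libraries right of it; grey lines join the values of 1 gene and the black diamonds are the median over genes. Both panels show the same course, high in KO replicate 2 and control replicate 2 and low in control replicate 1.

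The subunits shared this course. The median deviation of large subunit genes was -0.09, 0.12 and -0.08 in KO shelves, against -0.12, 0.13 and 0.05 in control shelves. That of small subunit genes was -0.08, 0.12 and -0.10 in KO shelves, against -0.12, 0.13 and 0.04 in control shelves. Over the 6 libraries the subunits' medians had a Pearson r of 0.996 and a Spearman rho of 0.943, and r was 0.989 without KO replicate 2 and control replicate 2. These are descriptions with no p-value, since all members of a library share its depth, scaling and RNA.

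Over all 3321 pairs of members, the median Pearson r across the 6 libraries was 0.86, and 84.8% of the pairs were above 0.5. The median was 0.88 among large subunit genes, 0.83 among small subunit genes and 0.86 between the subunits. It was 0.27 among the 418 other genes of at least 100 FPKM, and 0.02 over all tested genes. Within lists of related genes it was 0.87 for 6 elongation factors, 0.79 for 56 nuclear-encoded respiratory chain genes and 0.14 for 24 initiation factors. It was 0.06 for 44 ribosome biogenesis factors. Within lists of cell type markers it was 0.96 for cartilage, 0.87 for erythroid cells, 0.80 for neurons and 0.51 for palatal mesenchyme. A high r within a list was thus not particular to the members. With each group's mean taken out first, the median among members was 0.90. The median r of members depends on the scaling of the libraries. It was 0.88 after median-of-ratios scaling, 0.68 after rescaling each library to a common sum (TPM) and 0.42 after quantile normalization. Library sums of FPKM ran from 384979 to 424340 in KO and from 399240 to 424993 in control shelves and were highest in the same 2 libraries, KO replicate 2 and control replicate 2.

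Single members followed the others closely. The r of a gene with the median deviation of all other members was above 0.9 for 56 of the 82 genes. It was 0.997 for Rps20, 0.994 for Rps2 and 0.992 for Rpl35. Rpl35, which lies at the tunnel exit, had 349, 398 and 349.8 FPKM in KO shelves, against 339, 410.3 and 376 FPKM in control shelves. It was highest in KO replicate 2 and control replicate 2 within the groups, and its lowest library was control replicate 1.

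The steadiest members varied little between libraries. Rps14, a protein of the small subunit platform whose loss is known from a human anaemia with a chromosome deletion, had 913, 987 and 924 FPKM in KO shelves, against 885, 922 and 998 FPKM in control shelves. Its SD over the 6 libraries was 0.07 on the log2 scale, as was that of Rpl22, while Rpl36a had 0.08 and Rpl7l1 0.05. The median SD was 0.13 over members and 0.12 over all tested genes, so members were not steadier than other genes.

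Other abundant components of translation had a similar course. Fau and Rack1 encode ribosomal proteins whose names lie outside the pattern. Fau, a fusion of a ubiquitin-like protein with a small subunit protein, had 544, 637 and 515 FPKM in KO shelves, against 508, 618 and 585 FPKM in control shelves. Rack1, a scaffold protein on the small subunit, had 660.2, 735 and 696 FPKM in KO shelves, against 663, 767 and 717 FPKM in control shelves. Both were high in KO replicate 2 and control replicate 2, with an r to the members' course of 0.97 for Fau and 0.94 for Rack1. The 6 elongation factors had median deviations of -0.08, 0.11 and -0.07 in KO shelves, against -0.09, 0.11 and 0.07 in control shelves. Eef1a1, which brings aminoacyl-tRNA to the ribosome, had 4151, 4251 and 4251 FPKM in KO shelves, against 3999, 4679 and 4557 FPKM in control shelves. Over all pairs of an elongation factor with a single member, the median r was 0.86.

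The course was not shared by all genes for making ribosomes. Over pairs of a listed gene with a single member, the median r was 0.19 for the 44 biogenesis factors. By the same measure it was 0.03 for the 14 genes of RNA polymerase I and its factors. It was 0.47 for the 24 initiation factors and 0.52 for the 12 further TOP mRNA genes. To the members' course, the r of single TOP genes ran from 0.99 for Naca, which guards nascent chains, to -0.71 for Pabpc1, which binds poly(A) tails. Naca had 294, 348 and 296 FPKM in KO shelves, against 281, 342 and 331 FPKM in control shelves. Pabpc1 had 244, 234 and 275 FPKM in KO shelves, against 270.2, 241 and 220 FPKM in control shelves. Over pairs with single members, the median r was 0.81 for 56 nuclear-encoded respiratory chain genes, 0.74 for 31 proteasome subunits and 0.71 for 78 mitochondrial ribosomal proteins. The 56 respiratory chain genes had median deviations of -0.11, 0.11 and -0.10 in KO shelves, against -0.08, 0.10 and 0.07 in control shelves.

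**Figure D3:**
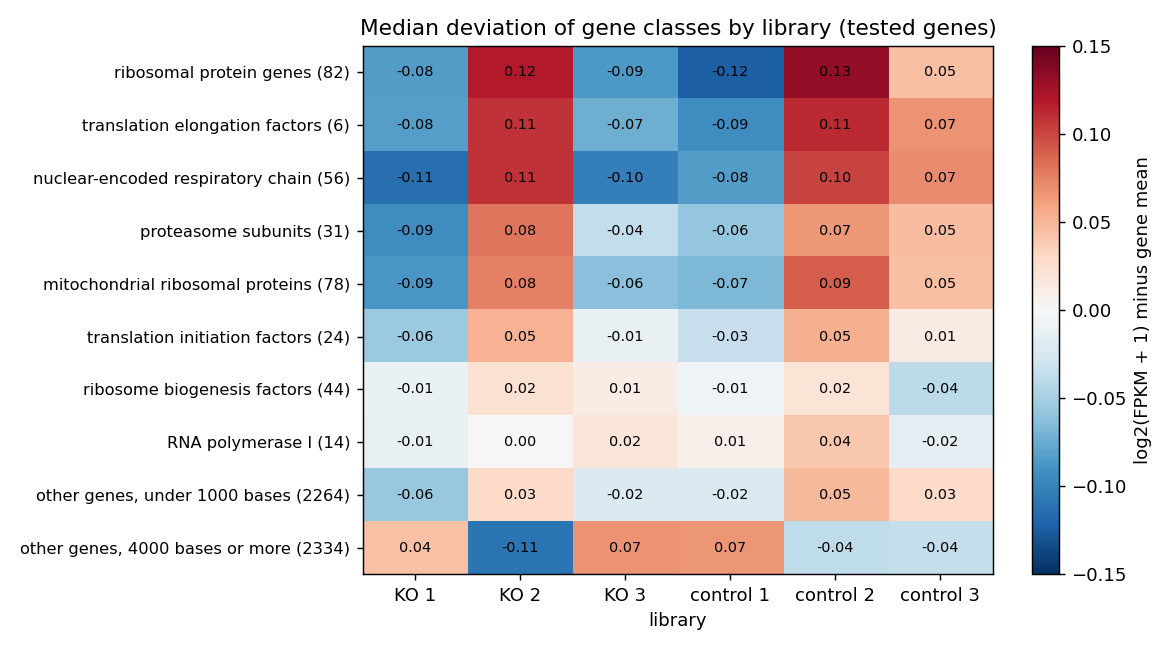
Median deviation of log2(FPKM + 1) from the gene mean for gene classes (rows) in each library (columns, KO left of control); red is above and blue below the gene mean, and each cell gives the value. Ribosomal protein genes, elongation factors and respiratory chain genes are high in KO replicate 2 and control replicate 2, and other genes of at least 4000 bases are lowest in KO replicate 2.

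Length, blood and tissue markers also moved with these libraries. Members are short, with a median annotated transcript of 704 bases. Among other protein-coding genes, the 331 under 1000 bases and of at least 50 FPKM had median deviations of -0.09, 0.07 and -0.06 in KO shelves, against -0.07, 0.08 and 0.06 in control shelves. The 78 of at least 4000 bases and at least 50 FPKM had 0.04, -0.10 and 0.06 in KO shelves, against 0.05, -0.05 and -0.01 in control shelves. These classes were chosen after the values had been seen. The 10 palatal mesenchyme markers had median deviations of -0.04, -0.07 and 0.22 in KO shelves, against 0.10, -0.16 and -0.13 in control shelves. Over pairs with single members, their median r was -0.54. Globin genes held 4.55, 9.53 and 5.40% of all FPKM in KO shelves, against 6.43, 7.98 and 4.38% in control shelves, and were highest in KO replicate 2 and control replicate 2, as the members were. Of the marker lists, the 10 skeletal muscle genes followed the members most closely, with a median r of 0.71 and median deviations of -0.28, 0.14 and -0.20 in KO shelves, against -0.33, 0.20 and 0.42 in control shelves. The median r was 0.49 for 10 erythroid, 0.45 for 9 epithelial, 0.16 for 6 neuronal, 0.15 for 11 leukocyte, -0.16 for 10 cartilage and -0.22 for 7 endothelial markers. Cartilage markers shifted most, with 1.32, -0.998 and -1.27 in KO shelves, against 0.14, -0.07 and 1.02 in control shelves. Mitochondrially encoded genes held 5.45, 5.09 and 5.38% in KO shelves, against 5.80, 5.34 and 5.54% in control shelves. The part of transcript length, blood content and tissue makeup in the members' course was not tested. In bulk tissue, fewer cells of a type and less RNA per cell cannot be told apart.

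In KO against control shelves, no ribosomal protein gene passed the test. In limma on log2(FPKM + 1), 0 of the 82 members had an adjusted p under 0.05, against 0.333% of all tested genes. The smallest unadjusted p was 0.105, so 0 members were under an unadjusted p of 0.05, against 4.01% of all tested genes. All 6 values of a member separated the groups in 0 cases in either direction, against 3.27% of all tested genes higher and 5.79% lower in KO without overlap. The median log2 fold change was -0.04 over members, -0.04 in either subunit and -0.02 over all tested genes. It was above 0 in 15 of the members (18.3%), against 40.6% of all tested genes, and below 0 in 67. The libraries left out one at a time gave medians from -0.11 (without KO replicate 2) to 0.01 (without control replicate 2), so the sign of the median rests on control replicate 2. Between-group differences made up 11.02% of the members' variance, against 25.6% of that of all tested genes. Some variance falls between any 2 groups of 3 libraries without an effect, so these shares do not measure the effect of genotype.

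**Figure D4:**
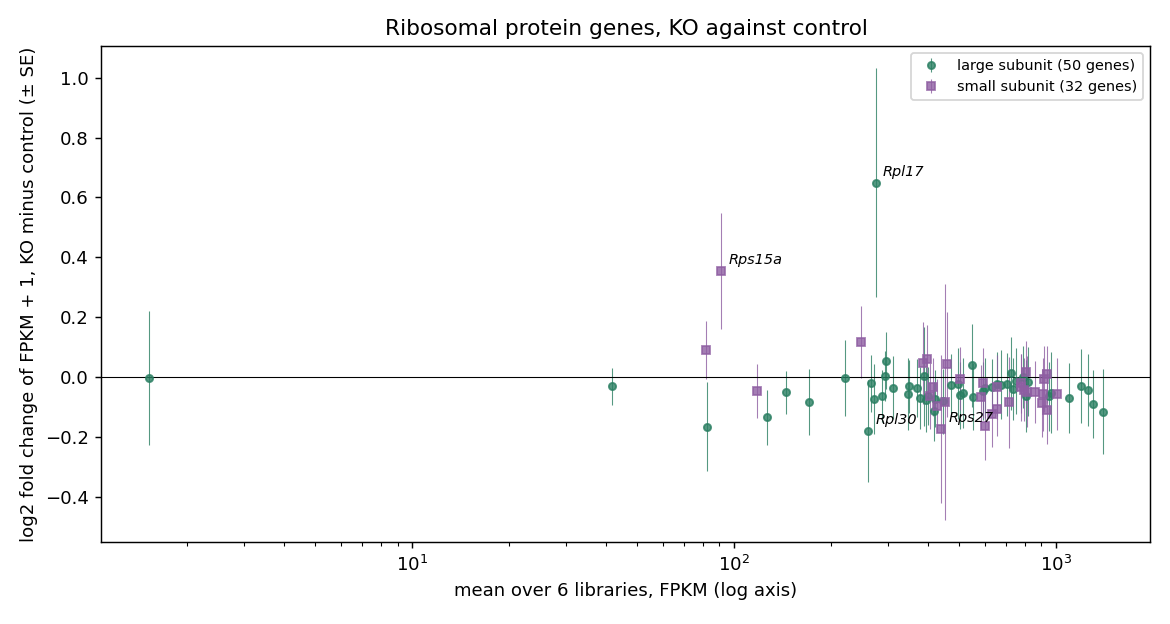
Log2 fold change of FPKM + 1, KO minus control, with its SE (bars) for each of the 82 members against the mean level in FPKM (log axis), large and small subunit in different colours. Most points lie within 0.1 of 0, with Rpl17 at 0.65 and Rps15a at 0.35 above the rest, and neither passed the test.

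Of the 82 fold changes, 69 were within 0.1 of 0 on the log2 scale. Members among those with the smallest p are given with their values. Rps15a, a small subunit protein, had 79.2, 94.8 and 136 FPKM in KO shelves, against 69.4, 92.2 and 75.8 FPKM in control shelves, with a log2 fold change of 0.35 ± 0.19 (SE, n = 3 each; limma adjusted p = 1.00). KO replicate 3 stood above all other libraries, KO replicate 2 slightly above the highest control library and KO replicate 1 among the controls. Rpl36al, given above, had a log2 fold change of -0.13 ± 0.09 (SE). Rps7, another binder of Mdm2, had 628, 656 and 609.8 FPKM in KO shelves, against 625, 716 and 698 FPKM in control shelves. Rpl34, a large subunit protein, had 366, 422 and 414 FPKM in KO shelves, against 390.1, 459 and 452 FPKM in control shelves. In both Rps7 and Rpl34 the groups overlapped. KO replicates 1 and 2 lay above the lowest control library in Rps7, and KO replicates 2 and 3 did so in Rpl34.

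The largest fold change belonged to Rpl17, a protein of the tunnel exit. Rpl17 had 459, 440.3 and 152 FPKM in KO shelves, against 188, 214 and 198 FPKM in control shelves, with a log2 fold change of 0.65 ± 0.38 (SE, n = 3 each) that limma did not call (adjusted p = 1.00). KO replicates 1 and 2 lay above all controls, and KO replicate 3 lay below all of them. Without KO replicate 3 the log2 fold change was 1.17 and passed in limma (adjusted p = 0.00835), the only member called in any of the 17 alternative fits. Over the alternatives its adjusted p ran from 0.00835 to 1.00. This call has to be read with the copies of Rpl17, below.

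Of the ribosomal protein genes mutated in human Diamond-Blackfan anaemia, 19 were tested and 0 were called, with a median log2 fold change of -0.04 and 4 above 0. Rps19, the gene mutated most often, had 547, 661 and 561 FPKM in KO shelves, against 529.6, 654 and 609 FPKM in control shelves, with a log2 fold change of -0.02 ± 0.12 (SE). The groups overlapped closely in this gene. In the related lists, too, limma called 0 genes at an adjusted p under 0.05, among them 44 biogenesis factors, 24 initiation factors, 6 elongation factors and 78 mitochondrial ribosomal proteins. The smallest p in these 4 lists belonged to Mrpl33, of the mitochondrial large subunit, with 24.5, 28.4 and 28.1 FPKM in KO shelves, against 31.6, 36.4 and 34.2 FPKM in control shelves (log2 fold change -0.33 ± 0.08, SE; limma adjusted p = 0.542). Its groups did not overlap. Eif1, which scans for the start codon, had 145, 152 and 151 FPKM in KO shelves, against 161, 175 and 178 FPKM in control shelves, also without overlap (log2 fold change -0.20 ± 0.07, SE; limma adjusted p = 1.00). Nle1, a factor of large subunit maturation, had 15.1, 16.95 and 17.5 FPKM in KO shelves, against 18.1, 19.4 and 19.2 FPKM in control shelves, likewise without overlap and without passing. Of the 44 biogenesis factors 6 lay higher and 4 lower in KO without overlap, of the 24 initiation factors 0 and 1, of the 78 mitochondrial ribosomal proteins 0 and 5, and of the 6 elongation factors 0 and 0, against the 3.27% higher and 5.79% lower of all tested genes. Markers of leukocytes lay above the controls in all KO libraries in 10 of 11 tested genes, against 3.27% of all tested genes, summing to between 99.7 and 137 FPKM in KO and between 69.7 and 86.4 FPKM in control shelves, and 0 of the 11 were called.

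Ribosomal protein genes have given rise to many processed pseudogenes, reverse-transcribed copies scattered over the genome, and reads from a gene and its copy can be confused. Each member's annotated transcript was therefore cut into windows of 50 bases. A median of 49.3% of a member's windows also occurred in transcripts of other annotated genes, 8 members had under 10% shared and 40 had 50% or more. Copies, here genes that share at least 1 window with a member and are pseudogenes by annotation or by name, with Rps27rt beside them, were listed 1098 times in the table, 575 of them above 0 and 245 with a mean of at least 1 FPKM. With their copies added, members held 13.03 ± 0.509% of all FPKM in KO and 13.1 ± 0.873% in control shelves (SD, n = 3 each). Rpl10-ps3, Rpl9-ps6 and Rps12-ps3 are named as pseudogenes but annotated as protein-coding. The share of windows had little relation to the spread of a member over the libraries, with a Spearman rho of -0.01 across the 82 genes. The median pairwise r was 0.86 among the 8 members with under 10% and 0.87 among the 40 with 50% or more, but 53.6% of the pairs among the 8 were above 0.5, against 93.6% among the 40.

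Some of the members that stood apart from the rest had abundant copies. The members with the largest SD over the 6 libraries were Rpl17, Rps27a, Rps27, Rps15a, Rpl39l and Rpl30, and those with the lowest r to the other members were Rpl7a, Rpl39l, Rpl21 and Rps15a. In Rpl17, Rps27a, Rps27, Rpl30, Rpl7a and Rpl21, the summed FPKM of the copies ran opposite to the gene. Their r across the 6 libraries was -0.83, -0.95, -0.95, -0.85, -0.88 and -0.68 in that order. These 6 values are among the lowest of the members. In other members with abundant copies the sum ran with the gene, with an r of 0.997 for Rpl9, 0.97 for Rps16, 0.96 for Rpl12 and 0.94 for Rps10. Where a gene and its copies run opposite, a smaller SD of their sum follows in part by arithmetic. In Rps12, whose copies summed to 127% of its own level, r was -0.09, and its SD was 0.14 with the copies, against 0.25 for the gene alone. FPKM of rows of different length are summed here, so the sums are approximate.

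For Rpl17 the copies, above 0 in 23 pseudogenes, summed to 438, 563 and 732 FPKM in KO shelves, against 601, 751 and 688 FPKM in control shelves. The most abundant of them, Rpl17-ps3, had 193, 271 and 341 FPKM in KO shelves, against 328, 395 and 375 FPKM in control shelves. The libraries in which Rpl17 was high, KO replicates 1 and 2, were those in which its copies were lowest. With the copies added, the SD of Rpl17 over the 6 libraries was 0.12 on the log2 scale, against 0.67 for the gene alone, and the part of the division of reads between gene and copies in its fold change was not tested.

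Rps27a encodes a fusion of ubiquitin with a small subunit protein. It had 410.1, 585 and 289.8 FPKM in KO shelves, against 234, 641 and 548 FPKM in control shelves. Its copies summed to 169, 131 and 250 FPKM in KO shelves, against 264, 92.6 and 91.9 FPKM in control shelves, low where the gene was high. Rps27, a zinc finger protein of the small subunit, had 359, 532 and 340.0 FPKM in KO shelves, against 389, 649 and 369 FPKM in control shelves. Rps27rt, which shares 98.6% of the windows of Rps27, had 229, 113 and 272 FPKM in KO shelves, against 174, 87.7 and 304 FPKM in control shelves. KO replicate 2 and control replicate 2 were high for Rps27 and low for Rps27rt. With copies added, the SD was 0.22 for Rps27a and 0.14 for Rps27, against 0.59 and 0.37 for the genes alone.

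**Figure D5:**
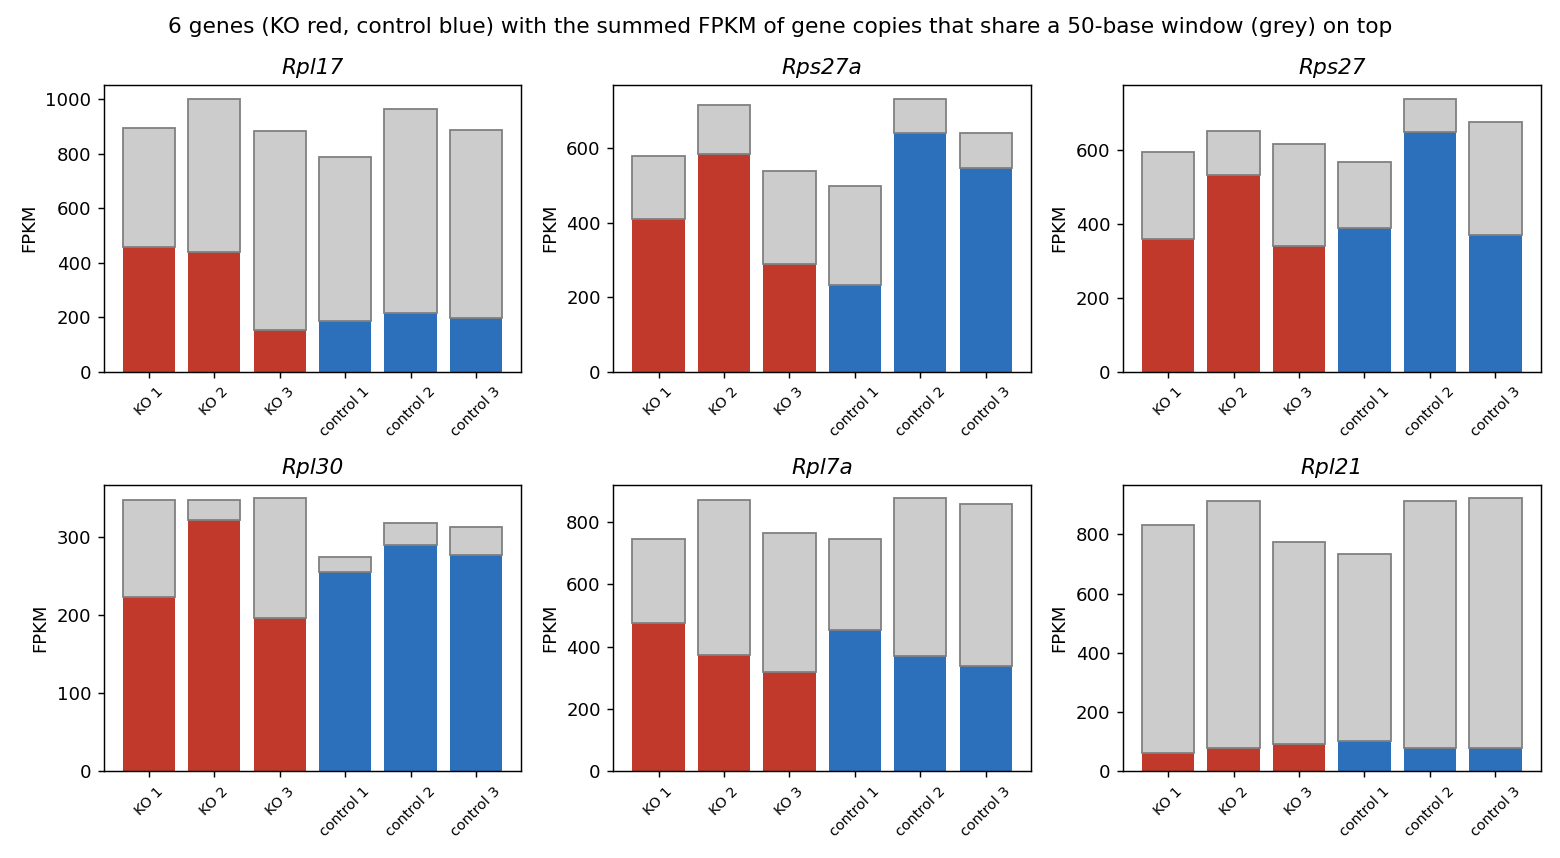
FPKM in each library of 6 ribosomal protein genes (coloured bars, KO red and left, control blue and right) with the summed FPKM of their copies stacked on top in grey; copies are annotated pseudogenes, and Rps27rt for Rps27, that share at least 1 window of 50 bases with the gene. In relative terms the coloured part varies between libraries more than the full height, as in Rpl17, where KO replicates 1 and 2 stand out only in the coloured part.

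Rpl30, whose protein is known to bind its own transcript in yeast, had 223, 322 and 197 FPKM in KO shelves, against 255, 290.0 and 277 FPKM in control shelves. Rpl7a, a large subunit protein with the most copies in the annotation, 119, had 478, 375 and 320.2 FPKM in KO shelves, against 454, 371 and 337 FPKM in control shelves. Rpl21 had 63.5, 77.4 and 91.7 FPKM in KO shelves, against 101, 80.5 and 78.1 FPKM in control shelves, and its copies summed to 769, 835 and 682 FPKM in KO shelves, against 633, 833 and 844 FPKM in control shelves. Rpl21 thus stood below the sum of its own copies in each library. With copies added, the SD was 0.14 for Rpl30, 0.12 for Rpl7a and 0.14 for Rpl21, against 0.26, 0.23 and 0.23 for the genes alone. Of 73 members whose copies summed to at least 1 FPKM, 38 had a lower SD with the copies, and so did 12 of the 24 members whose copies exceeded 20% of their own level.

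In 2 variable members the copies made little or no difference. Rps15a shares 6.37% of its windows, and its SD was 0.30 with copies added, against 0.34 for the gene alone. Rpl39l shares no window with another annotated gene and had an SD of 0.31 at a mean of 1.52 FPKM. Rpl36al had an r of 0.09 to the other members, with an SD of 0.13. Of its copies 1 was above 0, Rpl36a-ps3, with a mean of 8.01 FPKM and 18.1% of the windows of Rpl36al. This copy ran opposite to the gene, with an r of -0.85, and the SD of Rpl36al was 0.11 with it added. Of the 82 members, 30 hold a small nucleolar RNA gene in their span, 6 overlap another gene on the same strand and 23 overlap a gene on the opposite strand, and whether reads were counted by strand is not given in the sources used.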

How the data were processed

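Per the labels' protocols, total RNA of palatal shelves was purified with a ReliaPrep kit, and 6 libraries were sequenced. The values are FPKM made by the authors and deposited as 1 table, whose name gives the unit. Genome build mm10 and DESeq2 1.5.2 are named in the submitters' processing notes. Aligner, counting tool, gene annotation and strandedness are not given in the sources used. Libraries were grouped by title and columns were matched to them by library name. Symbols, coordinates and transcripts came from GENCODE mouse release M21.

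limma 3.58.1 in R 4.3.3 was run on log2(FPKM + 1) over 14714 genes whose mean reached 1 FPKM. Genotype was the only term, eBayes used a trend, and p-values were two-sided, with Benjamini-Hochberg adjustment over these genes and a threshold of 0.05. Fold changes on this scale understate the change of low genes. FPKM are relative within a library, so a few very abundant genes, such as globins, shift all others. Read depth cannot be read from FPKM, so values carry no counting error. Covariation was described with Python 3.11.15 and scipy 1.17.1, with no p-value.

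Named members were those with the highest and lowest means, SDs and correlations, those with the smallest p, paralogue pairs, and stalk, 5S particle and laminin receptor genes. A few genes that this rule or the lists hold are not reported here by name. Others, mostly tied to copies or background, were chosen after their values were seen. The members and lists were chosen with earlier results of these data known. No genome was used, so shared sequence was sought in annotated transcripts only. The alternatives were other pseudocounts, filters, scalings, eBayes settings, library weights, a replicate block and each library left out in turn.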

Additional observations from a re-analysis of the deposited data

How the results depend on the processing

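Limits: with 3 libraries a group, unknown depth and relative units, small shifts of the whole class cannot be seen, and correlations rest on 6 libraries. The limma count of members called was 0 in the 17 alternative fits, except 1 (Rpl17) without KO replicate 3, so leaving out 1 library gave counts from 0 to 1. With the replicate block it was 0, and over all genes the fit called 41 higher and 1 lower, against 48 and 1 without it. Same-numbered libraries had correlations of 0.02, 0.31 and -0.24 of their deviations. Deviations from a shared mean are not independent, so these values cannot show whether the numbers pair the samples. Over all genes, the filter moved the calls most, with 67 higher and 2 lower without a filter and 24 higher and 0 lower at a mean of at least 5 FPKM. The correlation of the subunits' deviations, 0.996, was 0.957 in members under 10% shared windows, 0.980 after quantile normalization, 0.989 after rescaling to TPM, and from 0.992 to 0.999 with 1 library left out. The median pairwise correlation, 0.864, was 0.888 with copies added, 0.417 after quantile normalization, 0.683 after rescaling to TPM, and from 0.856 to 0.908 with 1 library left out. The difference in the ratio of large to small subunit, 0.00803, was -0.0246 in members under 10% shared windows. The cause of these shifts was not tested. The median log2 fold change of members ran from -0.11 to 0.02 in either subunit or both with 1 library left out, and stayed at or below 0 under the scalings. With library weights this median was not taken, but single members moved further. The log2 fold change was then -0.26 for Rplp1, against -0.11, and -0.17 for Rpl10, against -0.06. Rpl17 and Rpl7a moved upward, to 0.78, against 0.65, and to 0.19, against 0.004. The difference in the members' share of FPKM ran from -0.520 to 0.182 percentage points with 1 library left out. Of 628 recomputed fold changes of 37 named members, 55 had the other sign, none of them called either time. The alternatives with shared windows and with copies added were chosen after seeing the data. The planned search for windows in the genome was not run.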
